A study of Mus musculus with 7 samples.

Results

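The genes of the elastic fibre and of fibronectin were examined in heart tissue after coronary ligation. The 10 genes were chosen by name, for what their proteins do, when earlier results of these data were already known: Fn1, Eln, Fbn1, Fbln1, Fbln2, Fbln5, Efemp2, Mfap4, Mfap5 and Emilin1. They are 10 of the 56980 genes in the table, and all 10 were among the 11431 genes tested, those that reached an FPKM of 1 in 3 or more mice. FPKM counts the fragments of RNA read from a gene, scaled to gene length and library depth. Efemp2 reached that floor in 1 of 4 sham-operated mice and in 3 of 3 infarcted mice, so it entered the test through the group in which it was high.

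RNA from the myocardium of 7 male wild-type C57BL/6J mice, an inbred laboratory strain, was sequenced, with 1 library per mouse. The mice were bought at 8 weeks of age and acclimated for 1 week. In 3 of them the left coronary artery was tied off (MI mice), the other 4 had the surgery without the tie (sham-operated mice), and tissue was taken 4 days later. The labels call the samples myocardial, and the study calls the tissue of the MI mice ischemic. How much of each sample was infarct, border or remote muscle was not given in the sources used here, and nothing else was said to differ between the groups.

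Elastic fibres let arteries, lungs and skin stretch and recoil. Elastin is laid down on a scaffold of fibrillin microfibrils, helped by fibulins, microfibril-associated proteins and emilin, and is then cross-linked by lysyl oxidases. Fibronectin is a separate glycoprotein of the early wound matrix, which cells bind through integrins and on which collagens and fibrillin assemble. After infarction, fibroblasts of the heart are known to make much of this matrix.

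Sequence upstream of the start was matched for 6 of the 10 genes in RefSeq (GRCm38.p6), by gene symbol. Of their 10 start sites, 3 had 250 bases before the start with 0 annotated exon bases. All 3 belong to fibulin genes, and they are shown because their windows alone held no exon bases. The sequences are chr12:101819120-101819369 (minus strand) for Fbln5, chr15:85205699-85205948 (plus strand) for Fbln1 and chr19:5473696-5473945 (plus strand) for Efemp2, printed 5′ to 3′ in the direction of the gene. Capitals mark the GC box, GGGCGG or its reverse complement.
Fbln5: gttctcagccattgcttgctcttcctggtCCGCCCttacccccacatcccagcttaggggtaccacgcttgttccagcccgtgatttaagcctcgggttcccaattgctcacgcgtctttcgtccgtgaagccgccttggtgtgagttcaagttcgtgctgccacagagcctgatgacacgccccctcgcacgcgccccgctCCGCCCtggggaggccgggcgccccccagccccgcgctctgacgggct
Fbln1: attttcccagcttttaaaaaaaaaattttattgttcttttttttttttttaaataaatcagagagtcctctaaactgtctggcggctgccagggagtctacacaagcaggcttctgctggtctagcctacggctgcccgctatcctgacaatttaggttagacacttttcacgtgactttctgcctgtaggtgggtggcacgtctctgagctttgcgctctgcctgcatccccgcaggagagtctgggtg
Efemp2: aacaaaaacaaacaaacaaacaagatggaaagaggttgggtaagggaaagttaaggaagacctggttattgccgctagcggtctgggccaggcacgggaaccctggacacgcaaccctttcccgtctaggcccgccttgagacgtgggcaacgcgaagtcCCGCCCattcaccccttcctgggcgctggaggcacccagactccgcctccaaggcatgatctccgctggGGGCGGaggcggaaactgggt

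The windows of Fbln5 and Efemp2 each held 2 GC boxes and that of Fbln1 held 0. Windows at other start sites of these genes, which held exon bases, had 0 for Fbln5, 1 for Fbln1 and 5 each for Efemp2. At least 1 GC box was present in 32.7% of all 32851 mouse windows of the same length. On both strands, the TATA box TATAAA, the AP-1 motif TGANTCA, the TEAD motif CATTCC and the CArG box of serum response factor had 0 matches in the 3 windows, and were present in 12.4%, 6.75%, 12.6% and 1.47% of all windows. These are matches of letters, not sites of binding.

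Levels of all 10 genes were far higher in MI replicates 1 and 3 than in any sham-operated mouse. In MI replicate 2 they were much nearer to the sham-operated mice, with Eln and Mfap4 the furthest above them. The sum of the 10 FPKM values was 62.4 ± 2.15 (SD, n = 4) in the sham-operated mice, and 790, 95.8 and 759 in MI replicates 1, 2 and 3. In bulk tissue, more cells that make these RNAs and more RNA per cell cannot be told apart.

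**Figure D1:**
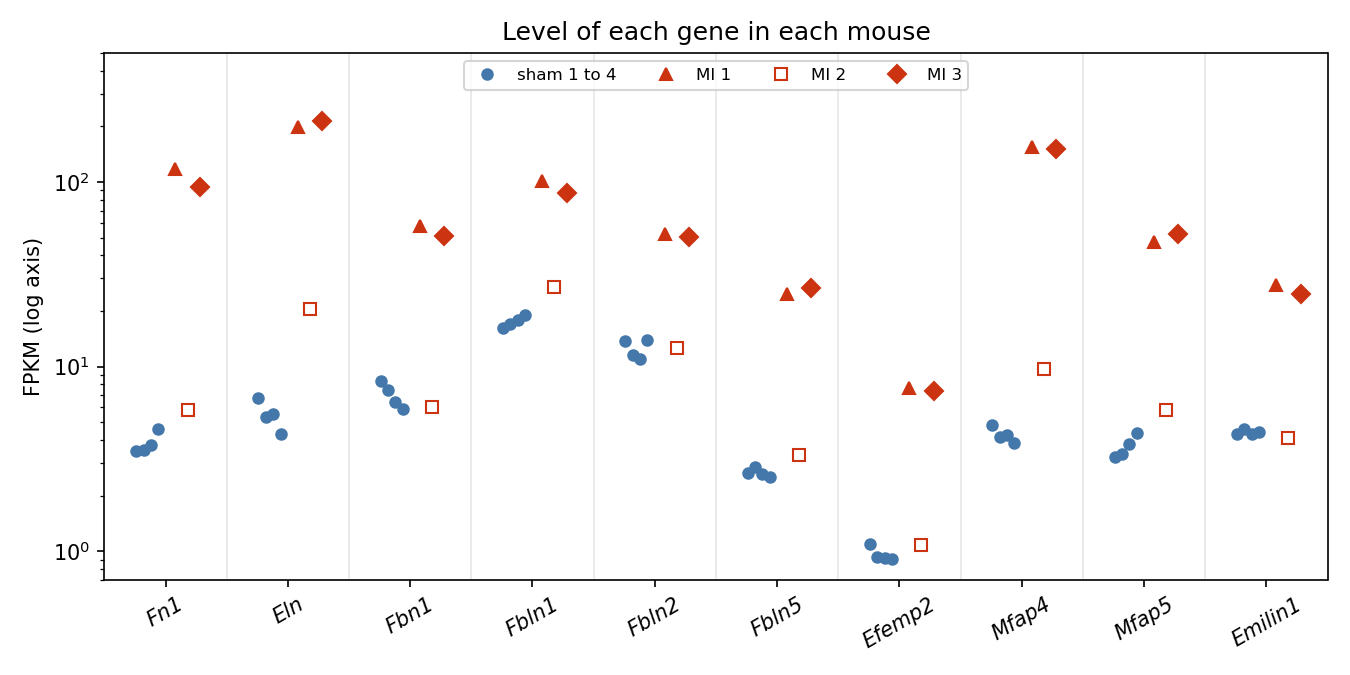
FPKM of the 10 genes in each of the 7 mice, on a log axis, with 1 point per mouse and the sham-operated and MI mice drawn apart. MI replicates 1 and 3 lie above the sham-operated mice for all 10 genes, while MI replicate 2 lies above them for 6.

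Each gene was tested with limma on log2(FPKM + 1), with Benjamini-Hochberg adjustment of the p-values over all 11431 genes. On this scale a log2 fold change understates the difference of low genes. None of the 10 genes reached an adjusted p under 0.05, where 0.0175% of all tested genes passed with higher levels in MI mice and 0.00875% with lower levels. All 10 were higher at an unadjusted p under 0.05 (limma), as were 29.5% of all tested genes, with 9.85% lower. All 10 also had a log2 fold change over 0.5, and this looser rule was passed by 17.8% of all tested genes upwards and by 4.8% downwards. Because the genes were chosen with earlier results known, these counts describe them and are no independent evidence of a direction. With voom weights on the recovered fragments the count at an adjusted p under 0.05 was also 0. The median log2 fold change was 1.89 over the 10 genes and 0.21 over all tested genes. In 6 of the 10 the lowest MI mouse exceeded the highest sham-operated mouse, as in 16.1% of all tested genes, whereas in 9% of all tested genes, and in 0 of the 10, the MI mice were all below. An exact two-sided permutation test over the 35 splits of 4 and 3 mice cannot give a p under 0.0571, so this test alone could not pass 0.05. The p-values measure the spread between these mice, and nothing in the sources says whether the mice of a group were operated on together.

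MI replicate 2 decided the calls at an adjusted p under 0.05. The looser rule was passed by all 10 genes without it too, and upwards by 34.7% of all genes tested. Without MI replicate 2, all 10 genes reached an adjusted p under 0.05 (limma, from 3.29e-07 to 1.12e-05). But then so did 6394 genes higher and 1677 lower of 11264 tested. Without MI replicate 1, 6 of the 10 passed the looser rule upwards, as did 5.11% of all genes tested, and without MI replicate 3 it was also 6, against 5.12%. Without MI replicate 2 the log2 fold changes were 4.47 for Fn1, 5.01 for Eln, 2.79 for Fbn1, 4.88 for Mfap4, 3.44 for Mfap5, 2.36 for Fbln1, 1.96 for Fbln2, 2.87 for Fbln5, 2.12 for Efemp2 and 2.33 for Emilin1. The lowest values with 1 mouse left out came without MI replicate 1 or 3, and in the same order were 2.40, 3.34, 1.26, 2.94, 1.96, 1.43, 0.97, 1.53, 1.10 and 1.08. The size of each difference therefore depended on which MI mice were included. In MI replicate 2 the cardiomyocyte markers Myh6, Tnnt2, Actc1, Ryr2, Myl2 and Tnni3 summed to 12210 FPKM, within the sham range of 12127 to 13292. The sum was 8324 and 8724 in MI replicates 1 and 3. Of these markers only Myl2 left the sham range in MI replicate 2, at 937 FPKM against 1000 to 1148. Mitochondrial genes held 28.2% of the fragments of MI replicate 2. They held 26.5% to 27.4% in sham-operated mice and 13.6% and 14.9% in the other MI mice. The part of these values in the results was not tested.

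Fn1 (ENSMUSG00000026193) encodes fibronectin. Its gene is on chromosome 1, 71585520 to 71653200, minus strand (GRCm38, GENCODE M21). Its FPKM was 3.48, 3.51, 3.77 and 4.59 in sham replicates 1 to 4, and 118, 5.79 and 94.5 in MI replicates 1 to 3. The groups did not overlap, and the lowest MI mouse stood just above the highest sham-operated mouse. Fragments numbered 1377 to 1656 in the sham-operated mice and 46351, 2369 and 40324 in the MI mice. The means were 3.84 ± 0.516 (SD, n = 4) and 72.7 ± 59.1 (SD, n = 3), a ratio of 18.9. On the log2 scale Fn1 was 3.14 higher (standard error 0.92, limma adjusted p = 0.108), the 23rd largest of all tested genes.

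Eln (ENSMUSG00000029675, chromosome 5, 134702593 to 134747323, minus strand) encodes tropoelastin, the soluble unit of elastin. FPKM was 6.79, 5.36, 5.51 and 4.33 in the sham-operated mice and 198, 20.4 and 214 in the MI mice. The groups did not overlap, and of the 10 genes Eln stood highest above its sham mean in MI replicate 2. Relative to the sham mean, its level was 36.0-fold in MI replicate 1, 3.71-fold in MI replicate 2 and 39.0-fold in MI replicate 3. There were 836 to 1473 fragments in the sham-operated mice, and 41738, 4470 and 48983 in the MI mice. The sham mean was 5.50 ± 1.01 (SD, n = 4) and the MI mean 144 ± 108 (SD, n = 3). With a log2 fold change of 3.92 (standard error 0.76), Eln ranked 9th of 11431 genes, at a limma adjusted p of 0.108.

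Of the microfibril genes, Fbn1 (ENSMUSG00000027204, chromosome 2, 125300594 to 125507993, minus strand) encodes fibrillin-1, the backbone of the microfibril, which is mutated in Marfan syndrome. It was at 8.39, 7.48, 6.40 and 5.90 FPKM in the sham-operated mice and at 57.6, 6.03 and 50.9 in the MI mice. MI replicate 2 lay within the sham range, at 0.856 of the sham mean. The log2 fold change was 1.797 (standard error 0.70, limma adjusted p = 0.114).

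Mfap4 (ENSMUSG00000042436, chromosome 11, 61485431 to 61488900, plus strand) encodes a microfibril-associated protein that binds elastin and fibrillin. Its sham values of 4.79, 4.15, 4.26 and 3.84 FPKM compared with 155, 9.67 and 151 in the MI mice. All MI mice were above all sham-operated mice, MI replicate 2 at 2.27-fold of the sham mean. The gene is short, and its values rest on 202 to 283 fragments in the sham-operated mice and 8912, 576 and 9403 in the MI mice. The log2 fold change of 3.59 (standard error 0.89, limma adjusted p = 0.108) was the 14th largest.

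Mfap5 (ENSMUSG00000030116, chromosome 6, 122505845 to 122529290, plus strand), which encodes the microfibril-associated glycoprotein MAGP-2, was at 3.24, 3.36, 3.80 and 4.35 FPKM in the sham-operated mice. It was at 47.3, 5.85 and 52.0 in the MI mice, again without overlap. Its log2 fold change was 2.48 (standard error 0.67, limma adjusted p = 0.108).

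The fibulins link elastin to microfibrils and basement membranes. Fbln1 (ENSMUSG00000006369, chromosome 15, 85205949 to 85286535, plus strand) encodes fibulin-1, a binding partner of fibronectin. At the gene lengths behind the deposited values, it had the highest sham FPKM of the 10. Its FPKM was 16.2, 17.0, 17.8 and 19.1 in the sham-operated mice and 101, 27.0 and 87.2 in the MI mice. The groups did not overlap and MI replicate 2 was 1.54-fold of the sham mean. Its standard error, 0.42 around a log2 fold change of 1.77, was the smallest of the 10 (limma adjusted p = 0.108).

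Fbln2 (ENSMUSG00000064080, chromosome 6, 91212455 to 91272540, plus strand) encodes fibulin-2, found in vessel walls and in the embryonic heart. It was at 13.7, 11.5, 11.1 and 13.9 FPKM in the sham-operated mice and at 52.4, 12.6 and 50.2 in the MI mice. MI replicate 2 was in the middle of the sham range, at 1.01-fold of the sham mean. Fbln2 had the smallest log2 fold change of the 10, 1.31 (standard error 0.46, limma adjusted p = 0.109).

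Fbln5 (ENSMUSG00000021186, chromosome 12, 101746565 to 101819055, minus strand) encodes fibulin-5, which brings elastin onto microfibrils. FPKM was 2.66, 2.86, 2.62 and 2.51 in the sham-operated mice and 24.9, 3.31 and 26.6 in the MI mice. The groups did not overlap, although MI replicate 2 was only 1.24-fold of the sham mean. Its log2 fold change was 1.99 (standard error 0.61, limma adjusted p = 0.108).

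Efemp2 (ENSMUSG00000024909, chromosome 19, 5473954 to 5482517, plus strand) encodes fibulin-4, which holds lysyl oxidase to elastin and without which elastic fibres do not form. It was the lowest of the 10 genes in all 7 mice. FPKM was 1.10, 0.928, 0.915 and 0.906 in the sham-operated mice and 7.69, 1.09 and 7.41 in the MI mice, from 134 to 182 and from 182 to 1295 fragments. MI replicate 2 lay just under sham replicate 1. The log2 fold change was 1.45 (standard error 0.47, limma adjusted p = 0.108), and on the FPKM scale the ratio of the means was 5.61.

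Emilin1 (ENSMUSG00000029163, chromosome 5, 30913402 to 30921277, plus strand) encodes a glycoprotein at the interface of elastin and microfibrils. Its FPKM was 4.31, 4.60, 4.34 and 4.43 in the sham-operated mice, the narrowest spread relative to its mean among the 10. In the MI mice it was 27.8, 4.09 and 24.7. It was the one gene of the 10 for which MI replicate 2 was below every sham-operated mouse, at 0.927 of the sham mean. The log2 fold change was 1.52 (standard error 0.56, limma adjusted p = 0.111).

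Exons of 5 of the 10 genes overlapped a gene on the opposite strand, and 0 shared bases with a gene on the same strand. Without known strand, reads in such overlaps cannot be assigned. The overlaps were 292 bases of Fn1 with Apol7d, 267 of Eln with Gm30003, 2442 of Fbn1 with Gm9913, 173 of Efemp2 with Mus81 and 89 of Mfap4 with Mapk7. Apol7d, Gm30003 and Gm9913 were at 0.182 FPKM or less in every mouse, Mapk7 at 1.52 or less and Mus81 at 1.81 to 2.48.

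The order of levels differed between the groups. FPKM is per length, so levels can be set side by side, with the limit that the lengths implied by the deposited values were longer than the exon lengths of GENCODE M21, for Fn1 18077 against 11685 bases. In the sham-operated mice Fbln1 and then Fbln2 stood highest, and neither overlapped its neighbours. The order of these 2 rests on the implied lengths, 4708 against 4368 bases for Fbln1 and 9760 against 6370 for Fbln2. Fbn1, Eln, Emilin1, Mfap4, Fn1 and Mfap5 followed, each overlapping the next of these 6. Fbln5 and then Efemp2 came last, again without overlap. By the MI means the order was Eln, Mfap4, Fn1, Fbln1, Fbln2, Fbn1, Mfap5, Emilin1, Fbln5 and Efemp2, and every neighbouring pair overlapped. MI replicate 2 kept Fbln1 in first place, but Eln was second there, having been in place 4 or 7 in the sham-operated mice.

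Each gene was then expressed as a share of the summed FPKM of the 10, which removes any factor shared by a whole library. This comparison was chosen after the values had been seen. The share of Eln was 6.77% to 10.5% in the sham-operated mice and 25.1%, 21.3% and 28.2% in MI replicates 1, 2 and 3. The share of Mfap4 was 6.01% to 7.42% and then 19.7%, 10.1% and 19.9%. For these shares MI replicate 2 was on the same side as the other MI mice, although its summed level, 95.8 FPKM, was much nearer to the sham range of 60.4 to 64.6 than to theirs.

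In the other direction, the share of Fbln2 was 18.3% to 21.7% in the sham-operated mice and 6.63%, 13.2% and 6.61% in the MI mice. The share of Fbn1 was 9.24% to 13.0% against 7.29%, 6.29% and 6.71%. For Emilin1 it was 6.66% to 7.57% against 3.52%, 4.27% and 3.25%. Fbln5 and Efemp2 also had smaller shares in all 3 MI mice than in any sham-operated mouse. Each of these 7 differences had an exact two-sided permutation p of 0.0571, the smallest possible, or 0.0816 after Benjamini-Hochberg adjustment over the 10 shares. The shares of Fn1, Fbln1 and Mfap5 overlapped between the groups. Since shares sum to 100%, they are not independent of each other.

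**Figure D2:**
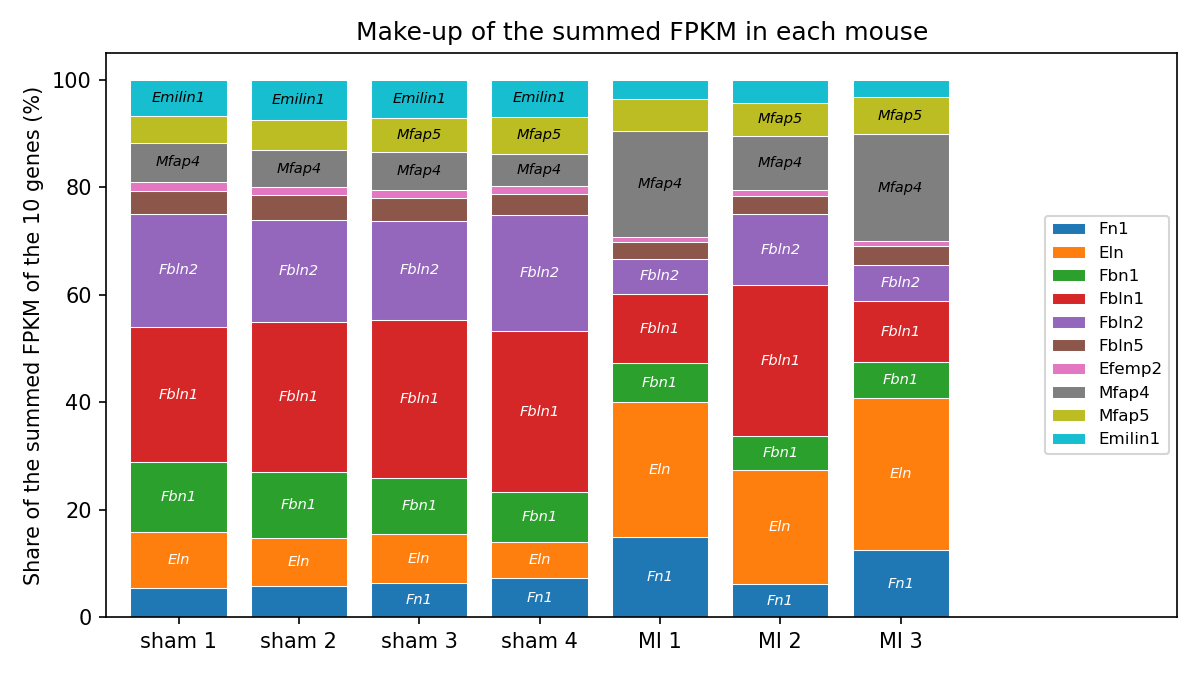
Share of the summed FPKM of the 10 genes held by each gene, in percent, as 1 stacked bar for each of the 7 mice. In all 3 MI mice Eln and Mfap4 hold larger shares, and Fbn1, Fbln2, Fbln5, Efemp2 and Emilin1 smaller ones, than in any sham-operated mouse.

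Whether Fn1 differed by the same amount as the elastic fibre genes was tested within each mouse, as log2(FPKM + 1) of Fn1 minus that of each other gene. From sham-operated to MI mice this difference was higher by 1.35 relative to Fbn1, by 1.83 relative to Fbln2, by 1.70 relative to Efemp2 and by 1.62 relative to Emilin1, with no overlap of the groups. Relative to Mfap4 it was -0.45, with every MI mouse lower and again no overlap. Each of these 5 had an exact two-sided permutation p of 0.0571, or 0.103 adjusted over the 9 comparisons. For these differences, and for those from fibroblast genes below, the share of all tested genes without overlap was not computed. Relative to Eln the difference was -0.77 and relative to Fbln5 it was 1.15, both with overlapping groups (exact permutation p = 0.114, adjusted 0.147). Relative to Fbln1 and Mfap5 it was 1.37 and 0.67 (exact permutation p = 0.286 for each), and for these 2 MI replicate 2 lay below all 4 sham-operated mice. This scale understates the difference of low genes such as Efemp2. With a pseudocount of 0.1 the log2 fold changes of Fn1 and Efemp2 were 3.37 and 1.96, against 3.14 and 1.45 with 1.

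Genes that mark the resident fibroblasts of the heart were set beside the 10 genes. The mean log2(FPKM + 1) of Pdgfra, Tcf21, Dpt, Dcn, Gsn and Pi16 was 4.09 ± 0.061 (SD, n = 4) in the sham-operated mice and 5.56, 4.33 and 5.61 in MI replicates 1, 2 and 3, a difference of 1.08. Of these 6 genes, 5 passed the looser rule with higher levels in MI mice, as did 17.8% of all tested genes. Gsn did not, at 212 to 260 FPKM in the sham-operated mice and 181, 282 and 243 in the MI mice. Relative to this mean, Eln was 2.84 higher in the MI mice, Mfap4 2.51, Mfap5 1.40 and Fbln1 0.69, in each case without overlap of the groups. The exact two-sided permutation p was 0.0571 for each of the 4, and 0.143 adjusted over the 10 comparisons. Gsn, with a log2 fold change of -0.06, lowers the reference difference of 1.08, and so raises each difference relative to it.

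For Fn1 the difference relative to the fibroblast genes was 2.06, with MI replicate 2 at -1.57 inside the sham range of -1.995 to -1.548 (exact permutation p = 0.114, adjusted 0.229). For Fbn1, Fbln2, Fbln5, Efemp2 and Emilin1 it was 0.72, 0.23, 0.91, 0.37 and 0.44, and the groups overlapped. On this scale MI replicate 2 was below every sham-operated mouse for Fbn1, Fbln2, Efemp2 and Emilin1, opposite to the difference of the means, and within the sham range for Fbln5. The scale again understates the difference of Efemp2.

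**Figure D3:**
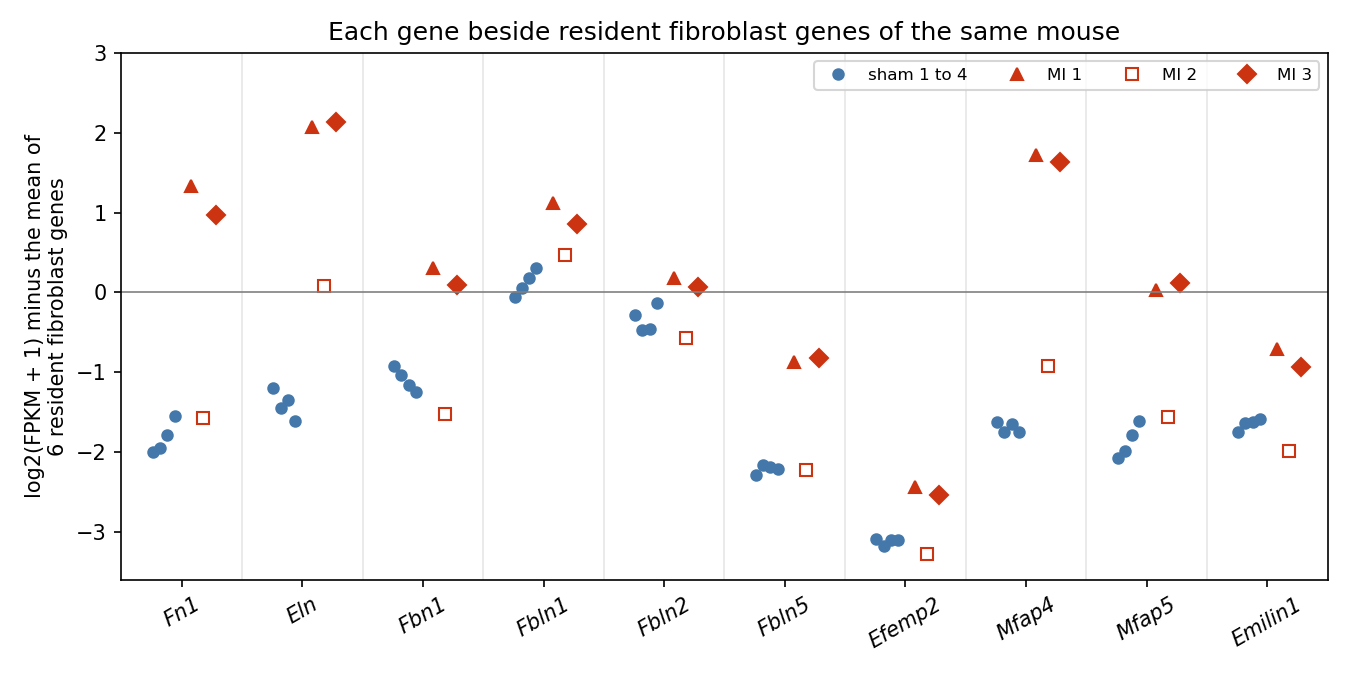
Difference in log2(FPKM + 1) between each of the 10 genes and the mean of 6 resident fibroblast genes, with 1 point for each of the 7 mice. For Eln, Mfap4, Mfap5 and Fbln1 all 3 MI mice lie above all 4 sham-operated mice, and for the other 6 genes the groups overlap.

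Markers of other cells were summed in each mouse, and their part in the results was not tested. Of these markers 0 reached an adjusted p under 0.05 (limma). The activated fibroblast markers Postn, Cthrc1, Col1a1, Col3a1 and Acta2 summed to 92.3 to 136 FPKM in the sham-operated mice and 2002, 165 and 1570 in the MI mice. Of the 5, 4 passed the looser rule upwards, which 17.8% of all tested genes passed. Of these, Cthrc1 reached the floor of 1 FPKM in MI mice only, so it entered the test through the group in which it was high. The 4 macrophage markers summed to 53.7 to 69.5 against 321, 64.3 and 267, and all 4 passed it. The smooth muscle markers, of cells that make elastin in arteries, summed to 105 to 127 against 215, 99.4 and 257, and 1 of 4 tested passed it. That was Tagln, at 9.21 to 10.2 against 51.8, 11.8 and 50.3, without overlap. Cnn1, which was not tested, also did not overlap, at 0.507 to 0.560 against 6.67, 0.685 and 5.25. Acta2, which is also on the activated fibroblast list, was the largest part of this sum in every mouse, at 46.8 to 74.0 against 121, 45.4 and 162. Smtn ran the other way, at 37.6 to 40.4 in the sham-operated mice and 29.4, 33.9 and 33.5 in the MI mice, and Myh11, the defining myosin of smooth muscle, overlapped at 5.34 to 7.07 against 6.30, 7.66 and 6.42. The 4 endothelial markers summed to 99.3 to 116 against 119, 92.1 and 128, and 0 passed. Kdr was lower in every MI mouse, at 18.1 to 21.5 against 17.7, 16.5 and 16.4, as were 9% of all tested genes. Pecam1, Cdh5 and Tek overlapped. The mesothelial markers Msln, Upk3b, Wt1 and Krt19 summed to 3.29 to 7.76 against 19.7, 15.7 and 30.6, so this sum was higher in MI replicate 2 as well, and all 3 tested passed. Wt1, which was not tested, did not share this, at 0.481 to 0.640 against 1.21, 0.451 and 1.07, with MI replicate 2 below the sham range. Krt19 and Msln met the filter through the MI mice, having reached 1 FPKM in 0 and 2 of the 4 sham-operated mice. The liver is the known source of plasma fibronectin, and its markers Alb, Apoa1, Ttr and Fgb summed to 0.227 to 5.49 FPKM in the sham-operated mice and 4.05, 0.882 and 1.31 in the MI mice, with overlap. The atrial markers, of which 0 were tested, summed to 0.438 to 0.952 in the sham-operated mice and 1.78, 0.483 and 1.40 in the MI mice. Among them Myl4 was at 0.189 to 0.282 against 0.833, 0.333 and 0.967, without overlap. The valve and cartilage markers Chad, Acan and Comp summed to 0.353 to 0.496 in the sham-operated mice and 110, 0.942 and 98.3 in the MI mice, nearly all of it Comp. The skeletal muscle markers summed to 741 to 1071 against 759, 839 and 931, and Myh4, which defines fast skeletal fibres, was listed at 0 in every mouse. Acta1 and Ckm, the other markers on that list, are also made by heart muscle. Acta1 was at 74.4 to 342 against 488, 183 and 568, with overlap. Ckm was at 635 to 738 against 271, 656 and 363, also with overlap. It passed the looser rule downwards, as did 4.8% of all tested genes.

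Genes that work on or with the elastic fibre were counted as whole lists. Of 18 partners of the fibre, 13 were tested and 0 reached an adjusted p under 0.05 (limma), while 8 passed the looser rule, all higher in MI mice, against 17.8% of all tested genes. Their median log2 fold change was 0.68. Lox, the lysyl oxidase that cross-links elastin and collagen, was at 0.586, 0.381, 0.402 and 0.449 FPKM in the sham-operated mice and at 52.5, 1.94 and 43.1 in the MI mice, with no overlap and a log2 fold change of 3.72. Lox reached 1 FPKM in 0 of 4 sham-operated and 3 of 3 MI mice, so it too entered the test, and the count of 8, through the MI mice. Loxl1, a lysyl oxidase needed to keep elastic fibres in adult tissue, was at 14.5, 15.3, 12.0 and 11.6 in the sham-operated mice and at 145, 14.7 and 139 in the MI mice, so that MI replicate 2 was within the sham range.

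Ltbp4, a latent TGF-β binding protein that works with fibulin-5, was at 45.8 to 50.0 FPKM in the sham-operated mice and at 85.5, 49.8 and 107 in the MI mice, with MI replicate 2 again within the sham range. Mmrn2, an emilin-family protein of the endothelium, was at 13.6 to 14.4 against 21.1, 14.2 and 21.2, and its log2 fold change of 0.38 was under the line of 0.5. Emilin3 was listed at 0 in all 4 sham-operated mice and in MI replicate 2, and at 0.0766 and 0.0771 FPKM in the other MI mice.

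Of 10 receptors of fibronectin, 7 were tested, 0 reached an adjusted p under 0.05 (limma) and 5 passed the looser rule, all higher in MI mice, against 17.8% of all tested genes, with a median log2 fold change of 0.79 over the 7. Groups did not overlap for 1 of the 7, against 16.1% of all tested genes, and so this count was near the background. That gene was Itgb5, an integrin chain that binds vitronectin and fibronectin. Its FPKM was 17.7, 17.7, 18.2 and 16.8 in the sham-operated mice and 78.8, 20.2 and 73.8 in the MI mice, and its log2 fold change was 1.43. Itga5 and Itgb1 form the main fibronectin receptor. Itga5 was at 11.4 to 12.1 in the sham-operated mice and at 32.0, 11.0 and 31.0 in the MI mice, with MI replicate 2 below the sham range. Itgb1 was at 75.7 to 82.2 against 148, 80.1 and 154, and Sdc2, a syndecan that binds fibronectin through its heparan sulfate chains, at 12.6 to 14.5 against 30.1, 13.8 and 31.9. For both, MI replicate 2 was within the sham range.

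Of 10 enzymes that can degrade elastin, 6 were tested, 0 reached an adjusted p under 0.05 (limma) and all 6 passed the looser rule with higher levels in MI mice, against 17.8% of all tested genes. Their median log2 fold change was 2.11, and the groups did not overlap for 5 of the 6, against 16.1% of all tested genes. Mmp2, the gelatinase A of stromal cells, was at 17.0, 13.6, 15.1 and 13.4 FPKM in the sham-operated mice and at 136, 19.1 and 109 in the MI mice. Ctss, cathepsin S, an elastase of macrophages, was at 9.75, 10.03, 7.40 and 9.39 against 117, 12.5 and 94.3. For both, MI replicate 2 was the lowest MI mouse and was above the sham range. Ctsl was at 11.4 to 12.7 against 31.5, 12.8 and 25.8. Ctsb overlapped, at 80.4 to 87.2 against 224, 82.3 and 207. Mmp7 was listed at 0 in all 7 mice. All enzymes of the list that were not tested were at 1.43 FPKM or less in every mouse, and their groups overlapped.

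**Figure D4:**
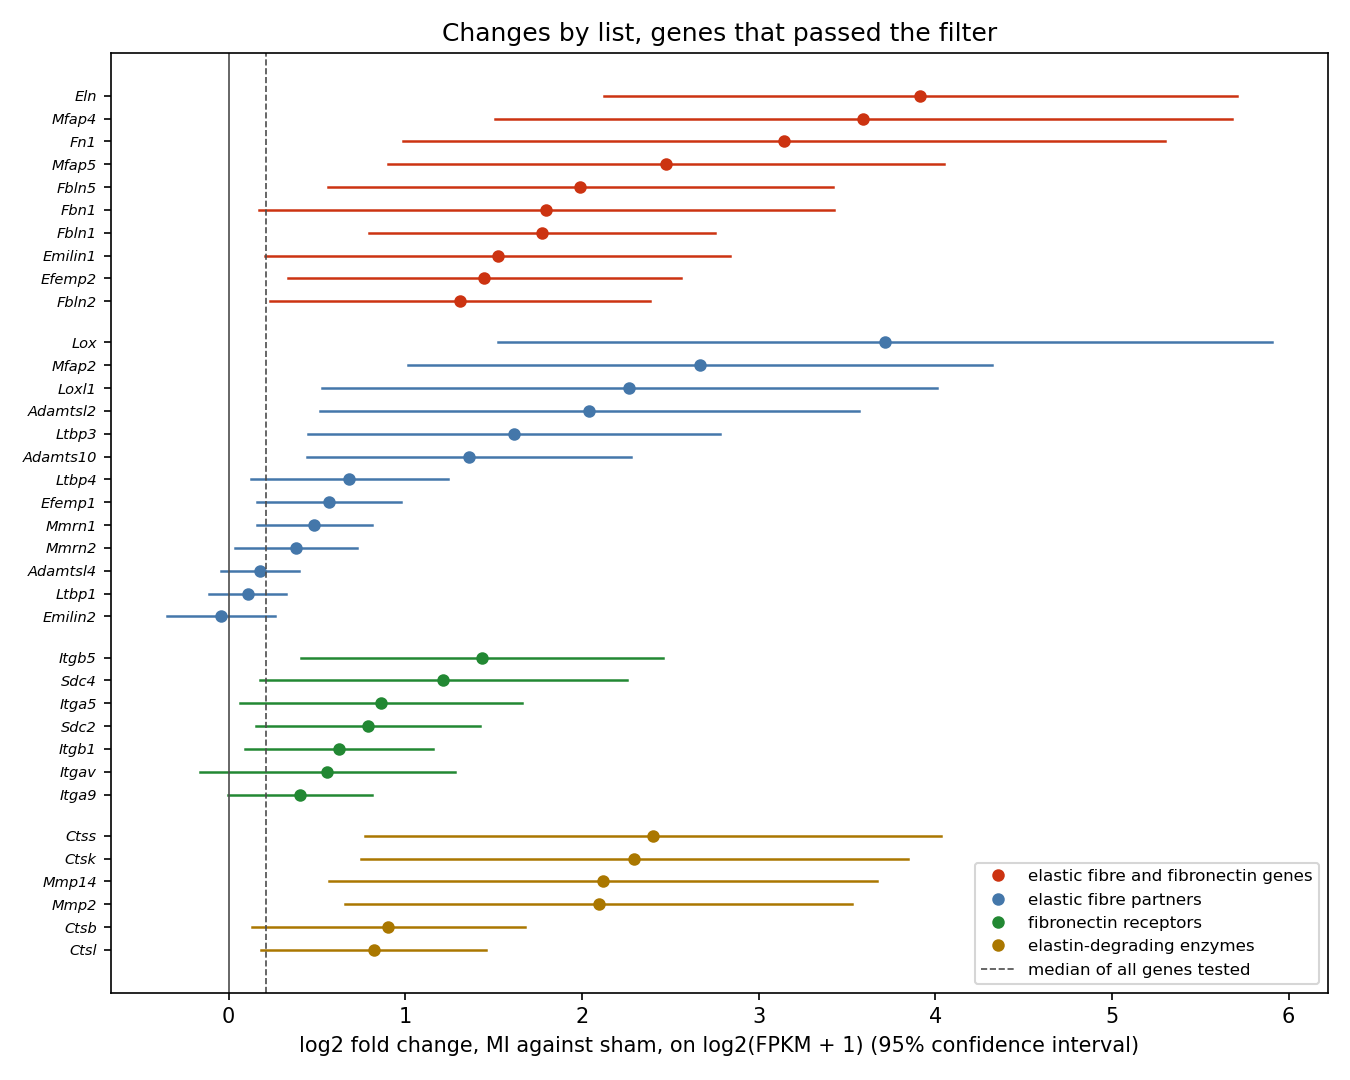
Log2 fold change of each tested gene, MI minus sham on log2(FPKM + 1), for the 10 genes and for the partners, receptors and elastin-degrading enzymes, with 1 point per gene, a line for its 95% confidence interval and a dashed line at the median of all tested genes. The medians are 1.89, 0.68, 0.79 and 2.11, and that of all 11431 genes is 0.21.

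The genes whose profiles over the 7 mice lay closest to those of Fn1 and Eln were named as a description. Closeness was the root mean square distance between the values of log2(FPKM + 1), each relative to its own sham mean. For Fn1 they were Ptn, a heparin-binding growth factor, at a distance of 0.13, Dkk3 at 0.18 and Col1a2, a chain of type I collagen, at 0.21. For Eln they were Cilp, a matrix protein, at 0.27, Thbs4, a thrombospondin, at 0.30 and Col1a1, the other chain of type I collagen, at 0.31.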

How the data were processed

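The authors deposited a table of FPKM values for 56980 mouse genes in 7 libraries. The submitters' processing notes name CASAVA 1.8, HISAT2, SAMtools 1.3.1, edgeR and mm10, without their roles. The counting program, annotation and strand setting are not given in the sources used here. 0 columns of values were left unused. Symbols came from GENCODE M21 for 52073 identifiers (91.39%).

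Whole fragments were recovered from the steps of the values (tolerance 0.05) for 30241 of 30504 genes above 0. They gave depths of 19977723 to 23610882 fragments per mouse. Fragment numbers carry counting error, and the SD over mice covers both that and the difference between animals. Summed FPKM was not equal between mice, and values were not rescaled.

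MI was compared with sham on log2(FPKM + 1), without covariates, for genes that reached an FPKM of 1 in 3 or more mice. The fit used limma 3.58.1 with its intensity trend and R 4.3.3. Single values were tested with exact two-sided permutation tests in Python 3.11.15 with NumPy 2.4.6 and SciPy 1.17.1. The fit was tested on simulated data. The 10 genes and all lists were chosen with earlier results of these data known. All 10 genes are named, and from each further list at most the 4 with the highest mean FPKM, plus any at 0 in all sham-operated mice. For Fn1 and Eln the 3 nearest profiles outside the 10 genes are named. Marker and overlapping genes are given with the results they bear on, those named singly after their values were seen. There were 16 alternatives, namely a filter on the mean, no filter, a pseudocount of 0.1, TPM, scaling by the median log-ratio, mitochondrial genes left out, sample weights, voom weights on fragments, a replicate block and each of the 7 mice left out. Replicate numbers are shared by the labels of both groups, and same-numbered mice were not correlated.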

Additional observations from a re-analysis of the deposited data

Results flagged for a closer look

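The values of Efemp2 in the sham-operated mice stood out by Dixon's rule. Sham replicate 1, at 1.10 FPKM, was apart from the other 3 sham-operated mice, which lay between 0.906 and 0.928, and the gap was 0.885 of the whole range of the group. This was 1 of 10 sets of values examined, of which chance flags about 1 in 20. Sham replicate 1 was also the reason that MI replicate 2, at 1.09, overlapped the sham range.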

How the results depend on the processing

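All 10 genes were higher in MI mice under each of the 16 alternatives, and 0 reached an adjusted p under 0.05 (limma) except with sample weights and without MI replicate 2, when all 10 did. Sample weights placed nearly all weight of the MI group on MI replicate 3, so they amount to a comparison with 1 mouse. Leaving out 1 mouse at a time gave 0 to 10 genes at an adjusted p under 0.05, 6 to 10 past the looser rule, 6 to 10 without overlap, 4 to 7 for which the difference of Fn1 from another gene was higher in all MI mice than in any sham-operated mouse, and 4 to 10 for which the difference from the fibroblast genes was. The upper end of each range was reached without MI replicate 2. Over all genes tested, the share past the looser rule upwards ran from 5.11% without MI replicate 1 to 34.7% without MI replicate 2, and the share with all MI mice above all sham-operated mice was 61.8% without MI replicate 2 and 16.3% to 19.9% without any other mouse.

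Over all genes at an adjusted p under 0.05, 2 were higher and 1 lower in MI mice. The numbers higher and lower were 20 and 1 with no filter, 5 and 1 when the pseudocount was 0.1, 0 and 0 with a filter on the mean, 10 and 4 with median log-ratio scaling, 2 and 0 as TPM, 8 and 3 with mitochondrial genes left out, 7636 and 2316 with sample weights, and 1 and 1 with voom weights. With 1 mouse left out they were 0 to 6394 higher and 0 to 1677 lower. With the replicate block they were 0 and 0, and 1770 and 562 genes had an unadjusted p under 0.05. The correlations of same-numbered mice were 0.07, -0.02 and -0.08, so the numbers were not taken as a pairing. The cause of these differences was not tested.

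By the looser rule, 78.8% of called genes were higher in MI mice, against 55.9% with median log-ratio scaling, 92.7% as TPM and 63.6% with mitochondrial genes left out, where the median gene stood at 0.05, 0.42 and 0.10. All 10 genes passed that rule under each of these scalings, which 10.9%, 32.7% and 12.7% of all tested genes passed upwards. Efemp2 lay near the floor of 1 FPKM in the sham-operated mice, where it had 134 to 182 fragments. The part of few fragments in the results of genes near the floor was not tested.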
